A study of Mus musculus with 4 samples.

Results

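Oxidative phosphorylation genes were followed through germinal center (GC) B cells, memory-like B cells and plasma cells (PCs) of immunized mice by single-cell RNA sequencing. The genes were chosen by symbol alone: Nduf, Sdha to Sdhd, Uqcr, Cox4i, Cox5 to Cox8 and Atp5 for the nuclear genome, and mt-Nd, mt-Co, mt-Cytb and mt-Atp for the mitochondrial genome. The symbols matched 111 of 32285 annotated genes, 98 nuclear and 13 mitochondrial. Sorted into complexes by symbol as well, the nuclear genes are 39 of complex I, 8 complex I assembly factors, 4 subunits of complex II, 4 complex II assembly factors, 8 subunits of complex III, 18 of complex IV and 17 of complex V. Ndufa4 and its relative Ndufa4l2 were counted with complex I for their symbols, although the Ndufa4 protein is known as a subunit of complex IV. The 13 mitochondrial genes are 7 of complex I, 1 of complex III, 3 of complex IV and 2 of complex V. They are all the mt- genes of the annotation, and so the same genes whose summed share decides which cells pass a mitochondrial filter.

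Oxidative phosphorylation makes ATP at the inner mitochondrial membrane. Complexes I and II feed electrons into the chain, complex III passes them to cytochrome c, complex IV gives them to oxygen, and the proton gradient built along the way turns complex V, the ATP synthase. Most subunits are encoded in the nucleus, transcribed gene by gene and imported. Core membrane subunits of complexes I, III, IV and V are instead encoded by mitochondrial DNA and cut out of long polycistronic transcripts. GC B cells alternate between the light zone (LZ), where they are selected on antigen and T cell help, and the dark zone (DZ), where they divide, and are known to depend on oxidative phosphorylation.

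The cells were splenic MD4 B cells, which carry an immunoglobulin transgene against hen egg lysozyme (HEL) on a C57BL/6 background. Donor cells marked by CD45.2 expressed a BCL2 transgene active in B cells only (BCL2.Tg) and had the genotype Dock8 wt/wt (WT) or Dock8 cpm/cpm (DOCK8-deficient). Before transfer into CD45.1+ wild-type recipients they were mixed with MD4 B cells that were CD45.1+ and Dock8 wt/wt and lacked the BCL2 transgene. The recipients were immunized with sheep red blood cells coupled to HEL, and HEL+ CD95+ B cells were taken from 6 spleens on day 8, 3 of recipients that had received WT and 3 of recipients that had received DOCK8-deficient CD45.2+ cells. The spleens were labelled with hashtag antibodies, pooled and sorted into a CD45.2+ and a CD45.1+ library, so that library, sort, BCL2 transgene and congenic marker cannot be told apart. All CD45.1+ cells were Dock8 wt/wt, in both recipient groups.

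After filtering, 9692 cells remained, 6488 in the CD45.2+ and 3204 in the CD45.1+ library, and 38 cell barcodes occurred in both. The WT recipients gave 1672 to 2607 CD45.2+ cells each (14589433 to 18036775 unique molecular identifiers, UMIs), the recipients of DOCK8-deficient cells only 44, 57 and 101 (342465 to 700331 UMIs), and the 6 recipients 339 to 947 CD45.1+ cells (2365275 to 7020373 UMIs). The DOCK8-deficient values below therefore rest on far fewer cells than the others. Levels are given as CPM, the UMIs of a gene scaled to a library of 1000000 UMIs. B cell markers summed to 10807 to 12038 CPM in the 4 groups, against 28.7 to 63.1 CPM for T cell markers and under 1 CPM for erythroid markers, and myeloid markers summed to 0.919 and 1.85 CPM in the CD45.2+ and 31.6 and 59.7 CPM in the CD45.1+ groups. Dock8 itself was at 104 ± 7.3 CPM (SD, n = 3) in the cells labelled DOCK8-deficient and 112 ± 7.4 CPM in WT CD45.2+ cells, and a transcript level read at the 3′ end does not check a loss of the protein.

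The labelled genotypes did not match the stated donor sexes. The study names male donors for WT and female donors for DOCK8-deficient CD45.2+ cells. Xist, the RNA that coats the inactive X chromosome, was at 1326 to 1609 CPM in the 3 mice labelled WT and at 284 to 452 CPM in the 3 labelled DOCK8-deficient, and the Y-linked Ddx3y at 1.98 to 2.86 against 54.3 to 70.3 CPM. Among the cells labelled DOCK8-deficient, 55.3 to 60.2% per mouse had a UMI of a Y-linked gene, 53.4 to 73.7% had Xist, and 35.2 to 39.5% had both. The direction of each genotype difference below thus rests on the hashtag labels, and genotype and donor sex cannot be told apart. As given above, 44 to 101 CD45.2+ cells per mouse carried the DOCK8-deficient and 1672 to 2607 the WT label. The part of cells with the wrong hashtag in the genotype values was not tested. Comparisons between cell states were made within mice, in CD45.2+ cells labelled WT by hashtag or in CD45.1+ cells, which are WT in both groups.

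Nuclear-encoded members were read against regulatory sequence as well as by level, because NRF1, the ETS factor GABPA and YY1 are known regulators of nuclear respiratory genes. RefSeq promoter windows (GRCm38.p6, 250 bases before to 50 after the gene start) were found for 81 of the 98 nuclear members. The NRF1 letters GCGCANGCG stood on either strand in 23 of the 81 (28.4%) against 6.472% of all 27025 windows, the ETS letters CCGGAAG in 21 (25.93%) against 9.121%, and the YY1 letters AAGATGGCG in 7 (8.642%) against 1.495%. At least 1 of these motifs was in 42 members (51.85%) and in 15.35% of all windows. The promoters of Cox6a1 (chr5:115348909-115349208, minus strand), Sdhd (chr9:50603800-50604099, minus strand) and Atp5k (chr5:108434350-108434649, minus strand) are shown because each holds both an NRF1 and an ETS match and its gene was higher in DZ than in LZ cells of both libraries. They read 5′ to 3′ along the gene's strand, with NRF1 and ETS matches in capitals.
Cox6a1: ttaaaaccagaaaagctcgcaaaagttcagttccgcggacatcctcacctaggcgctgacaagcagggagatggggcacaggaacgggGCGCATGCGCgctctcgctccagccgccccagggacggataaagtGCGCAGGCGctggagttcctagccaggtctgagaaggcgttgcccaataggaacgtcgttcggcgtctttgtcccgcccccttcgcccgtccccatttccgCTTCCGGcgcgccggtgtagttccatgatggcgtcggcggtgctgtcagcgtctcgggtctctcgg
Sdhd: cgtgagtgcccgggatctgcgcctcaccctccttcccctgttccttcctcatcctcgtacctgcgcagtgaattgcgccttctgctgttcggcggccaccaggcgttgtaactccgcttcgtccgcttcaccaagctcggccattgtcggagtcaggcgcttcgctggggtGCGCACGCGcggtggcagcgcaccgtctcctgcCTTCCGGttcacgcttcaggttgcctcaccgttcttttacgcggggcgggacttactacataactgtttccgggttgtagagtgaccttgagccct
Atp5k: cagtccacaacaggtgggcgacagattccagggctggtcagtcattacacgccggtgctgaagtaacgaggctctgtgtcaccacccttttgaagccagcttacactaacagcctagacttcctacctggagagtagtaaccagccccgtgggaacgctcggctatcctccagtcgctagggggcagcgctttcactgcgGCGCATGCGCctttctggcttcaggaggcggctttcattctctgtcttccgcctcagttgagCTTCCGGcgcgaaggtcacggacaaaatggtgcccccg

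The runs beginning GCGCA are the NRF1 matches, and CTTCCGG is the ETS motif read on the other strand. In Cox6a1 and Atp5k the NRF1 motif matched on both strands of the same stretch, shifted by 1 base, and Cox6a1 held another match further along. A match describes the letters of the window and is not evidence that a factor binds there. Of the 41 members with a motif that were tested in both libraries, 30 (73.2%) were higher in DZ than LZ in both, against 26 of 35 (74.3%) without one, so the presence of these letters did not go with the DZ difference described next.

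Cell states were defined by clustering on variable genes from which all members had been left out, so member counts did not set the states apart directly. Clusters were named LZ-like, DZ-like (DZ1, DZ2 and DZ3), EarlyGC1- and EarlyGC2-like, Activated/Memory-like, PC-like and cycling plasmablast-like from marker lists that the study had chosen on these libraries. LZ here means the cluster named from the LZ2 list (530 CD45.2+ and 1007 CD45.1+ cells), not the whole light zone. An LZ1-like cluster (312 and 65 cells) and an Activated2-like cluster (56 and 26 cells) entered no comparison of states. Counts were summed per mouse and state, and states were compared within mice by the quasi-likelihood test of edgeR. P-values were adjusted over all genes tested (Benjamini-Hochberg), and an adjusted p under 0.05 is a call. Of the 98 nuclear members, 93 were tested in at least 1 comparison and 85 in all 11, after a filter on low counts that a gene can pass through the state in which it is high. Cox7b2, Cox8b and Cox8c had no UMI in any cell, and Cox4i2 (53 UMIs) and Ndufa4l2 (12 UMIs) passed the filter in none. All 13 mitochondrial members were tested throughout.

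The nuclear members took a larger share of the transcriptome in DZ than in LZ and early cells, and a larger one in cycling plasmablasts than in PCs. In CD45.2+ cells of the 3 WT-group mice, the nuclear members made up 3.05 ± 0.03% of UMIs in DZ cells (SD, n = 3; lowest 3.02%, highest 3.07%), 2.23 ± 0.23% in LZ cells (2.05 to 2.49%) and 1.80 ± 0.09% in early and memory-like cells. The mitochondrial members ran the other way, with 1.99 ± 0.11% in DZ, 2.32 ± 0.08% in LZ and 2.54 ± 0.09% in early and memory-like cells. The ratio of mitochondrial to nuclear member UMIs was therefore 0.65 in DZ, 1.05 in LZ and 1.41 in early and memory-like cells. CD45.1+ cells of 6 mice gave 3.00 ± 0.07%, 2.27 ± 0.13% and 1.88 ± 0.05% for the nuclear members, and ratios of 0.72, 1.13 and 1.26. These shares are relative: a DZ cell of the WT-group CD45.2+ mice held 11612 UMIs on average against 6020 in an LZ cell, so both nuclear (354 against 135) and mitochondrial (230 against 140) member UMIs per cell were more numerous in DZ cells.

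PCs spend much of their transcriptome on immunoglobulin, which was 37.9% of their UMIs in CD45.2+ and 40.3% in CD45.1+ cells. Without immunoglobulin UMIs, nuclear members were 2.42 ± 0.20% in CD45.2+ PCs and 3.38% in cycling plasmablasts, and mitochondrial members 2.42% and 1.64%. The ratio of mitochondrial to nuclear member UMIs was 1.0 in PCs and 0.48 in cycling plasmablasts of the CD45.2+ library, and 0.72 and 0.41 in the CD45.1+ library. A cluster of 211 low-RNA cells, whose median UMI count was 0.28 of the library median, stood at the other end. The marker lists named it as LZ-to-pre-PC/memory-like, with 7 markers among its top 50 genes, and 4 of its 192 CD45.2+ cells carried the DOCK8-deficient label. It held 1.25% nuclear and 5.16% mitochondrial members in CD45.2+ cells. It was used in no comparison of states, but its cells were part of the non-plasma cells used for genotype and sort.

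**Figure D1:**
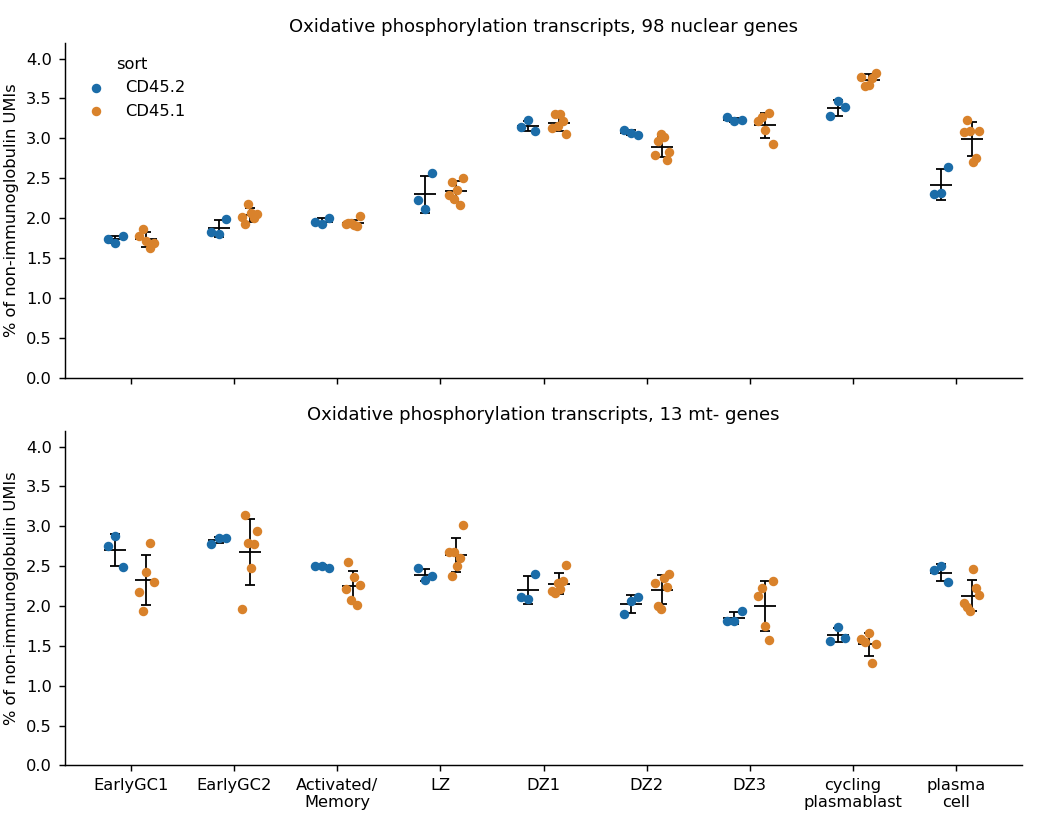
Percent of non-immunoglobulin UMIs from the 98 nuclear members (top) and the 13 mitochondrial members (bottom) in each cell state, with 1 point per mouse (CD45.2+ cells of the 3 WT-group mice in blue, CD45.1+ cells of up to 6 mice in orange) and the mean ± SD. The nuclear share is higher in the 3 DZ states and in cycling plasmablasts than in LZ and early states, and the mitochondrial share is lowest in cycling plasmablasts.

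The first comparison asked which members differ between the DZ and the LZ of the same mice. In CD45.2+ cells, 68 of 92 nuclear members tested were higher in DZ and none was lower, where 20.8% of all genes tested were higher and 15.6% lower (36.4% called in either direction). Without WT mouse 2, 45 nuclear members were called. The mice of both states did not overlap for 68 of the 92, against 46% of all genes. The median log2 fold change over the nuclear members was 0.56 and that over all genes -0.01. In CD45.1+ cells 62 of 89 were higher and 5 lower, with a median of 0.39 against -0.04 for all genes, of which 24.1% were higher and 23% lower (47.2% called). Across both libraries, 61 of 89 members were called higher in both and none in opposite directions. The share of all genes called in both libraries was not counted, here or in the comparisons below. The libraries share the recipients of the WT group but hold different cells.

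**Figure D2:**
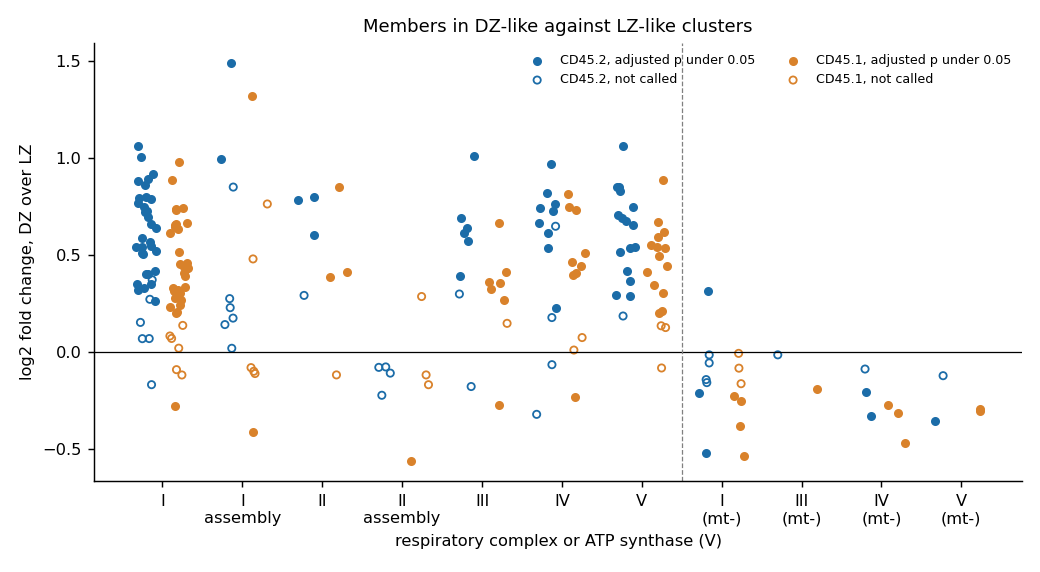
Log2 fold change of DZ over LZ cells (y axis) for each member by complex, in CD45.2+ and in CD45.1+ cells, with filled points at an adjusted p under 0.05. In both libraries most nuclear members lie above 0 and the mitochondrial members at or below it, with the exception of mt-Nd1 in CD45.2+ cells.

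Members of each complex were called. In CD45.2+ cells, 32 of 38 nuclear subunits of complex I were higher in DZ, 3 of 4 of complex II, 6 of 8 of complex III, 9 of 13 of complex IV and 16 of 17 of complex V, and in CD45.1+ cells 30 of 38, 3 of 4, 6 of 8, 8 of 11 and 14 of 17. The complex I assembly factors did not move as a group, with 2 of 8 called higher in CD45.2+ and 1 of 7 in CD45.1+ cells. The complex II assembly factors held no called increase in either library.

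Ndufaf2, a complex I assembly factor, had the largest fold change among the members tested in each library. It was at 43.4, 49.8 and 42.1 CPM in DZ cells of CD45.2+ mice 1, 2 and 3 and at 14.5, 15.8 and 24.7 CPM in LZ cells, and the 2 states did not overlap (log2 fold change 1.49 ± 0.22 SE, adjusted p = 1.3e-07). In CD45.1+ cells of 6 mice it ranged from 30.4 to 50.7 CPM in DZ and from 12.5 to 17.2 CPM in LZ. Ndufaf6 was the other assembly factor called in CD45.2+ cells (1.0 ± 0.38, adjusted p = 0.036), from a low level of 11.1 against 4.98 CPM. Ndufaf1, Ndufaf3 and Ndufaf8 had log2 fold changes of 0.18, 0.14 and 0.23 that did not pass. Ndufaf4 was at 0.02 in CD45.2+ cells and was lower in CD45.1+ DZ cells by edgeR (-0.41 ± 0.17, adjusted p = 0.035).

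Within complex I, Ndufa5, a subunit of the matrix arm, was at 192 against 97.9 CPM in CD45.2+ DZ and LZ cells (1.06 ± 0.13) and at 187 against 94.7 CPM in CD45.1+ cells (0.98 ± 0.10). Ndufab1, the mitochondrial acyl carrier protein, rose by 0.92 ± 0.12 and 0.89 ± 0.09. Of the catalytic core subunits, Ndufv1, which binds the NADH-oxidizing flavin, rose in both libraries (0.51 ± 0.16 and 0.63 ± 0.14), whereas Ndufs1 (0.37 and 0.32) did not pass in either.

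Complex II, which is also the succinate dehydrogenase of the TCA cycle, has no mitochondrial subunit. Its membrane anchor Sdhd, whose promoter is shown above, was at 70.1, 68.6 and 63.1 CPM in DZ and 33.9, 41.0 and 47.4 CPM in LZ cells of the CD45.2+ mice. The states did not overlap in CD45.2+ cells (0.78 ± 0.16, adjusted p = 8.4e-05), and in CD45.1+ cells the difference was 0.85 ± 0.15. The iron-sulfur subunit Sdhb rose by 0.80 ± 0.12 and 0.41 ± 0.09. The flavoprotein Sdha passed in CD45.1+ (0.39 ± 0.11) and not in CD45.2+ cells (0.29 ± 0.13, adjusted p = 0.081), and the anchor Sdhc the reverse (0.60 ± 0.20 in CD45.2+, -0.12 ± 0.19 in CD45.1+).

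Of complex III, the small subunit Uqcr10 was at 570 against 301 CPM in CD45.2+ cells (1.01 ± 0.10) and 491 against 301 CPM in CD45.1+ cells (0.67 ± 0.07). The Rieske iron-sulfur protein Uqcrfs1 (0.64 ± 0.13 and 0.36 ± 0.10) and the core protein Uqcrc1 (0.39 ± 0.13 and 0.33 ± 0.10) rose less. Uqcrh, the hinge protein, went against the others. It was at 710 in DZ against 841 CPM in LZ of CD45.2+ cells (-0.18 ± 0.08, adjusted p = 0.07), and it was lower in DZ of CD45.1+ cells (-0.27 ± 0.06, adjusted p = 1.9e-05).

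In complex IV, Cox6a1, whose promoter is shown above, was at 342, 352 and 359 CPM in DZ and 201, 187 and 249 CPM in LZ cells of the CD45.2+ mice (0.82 ± 0.11), and it rose by 0.81 ± 0.08 in CD45.1+ cells. Cox5a rose by 0.76 ± 0.10 and 0.73 ± 0.07, and Cox6b1 by 0.73 ± 0.09 and 0.40 ± 0.06. Cox7a2 was at 555, 564 and 570 CPM in DZ and at 296, 297 and 315 CPM in LZ cells. Its relative Cox7a2l was at 337 against 372 CPM and did not differ by this test in CD45.2+ cells (-0.06 ± 0.10), and was lower in CD45.1+ DZ cells (-0.23 ± 0.07). Cox4i1, an early-assembling subunit, was at 793 against 737 CPM in CD45.2+ cells (0.18 ± 0.08, adjusted p = 0.07).

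In complex V, Atp5j, a subunit of the peripheral stalk, was at 712, 662 and 668 CPM in DZ and 332, 297 and 412 CPM in LZ cells of the CD45.2+ mice (1.06 ± 0.10, adjusted p = 2e-13), and at 709 ± 37 against 373 ± 44 CPM in the 6 CD45.1+ samples. The catalytic subunit Atp5b was at 579, 581 and 605 CPM in DZ and 366, 343 and 435 CPM in LZ cells (0.71 ± 0.09), and its partner Atp5a1 rose by 0.69 ± 0.10. In CD45.1+ cells these core subunits rose by 0.44 ± 0.07 and 0.34 ± 0.07. Atp5k, the third promoter shown, rose by 0.85 in CD45.2+ and 0.67 in CD45.1+ cells.

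The mitochondrial members did not share this rise. In CD45.2+ cells 5 of 13 were lower and 1 higher in DZ (median -0.14), and in CD45.1+ cells 10 of 13 were lower and none higher (median -0.27). The 5 called lower in CD45.2+ cells were also lower in CD45.1+ cells. mt-Co1, the catalytic subunit of complex IV, was at 3631, 3648 and 3929 CPM in DZ and at 5177, 4943 and 4632 CPM in LZ cells of the CD45.2+ mice, with no overlap (-0.33 ± 0.05, adjusted p = 1.1e-06). In CD45.1+ cells it fell by 0.47 on the log2 scale. mt-Nd5, a proton-pumping subunit of complex I, was at 267 against 398 CPM (-0.52 ± 0.10), and mt-Atp8, mt-Nd4 and mt-Co3 were at -0.35, -0.21 and -0.20.

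mt-Nd1, which lies at the joint of the arms of complex I, was the exception. It was at 774, 804 and 802 CPM in DZ and 710, 608 and 702 CPM in LZ cells of the CD45.2+ mice (0.32 ± 0.08, adjusted p = 0.0015), but it did not differ by this test in CD45.1+ cells (-0.01). Some of these genes overlap in the mitochondrial genome: mt-Atp8 (GRCm38, chromosome M, 7766 to 7969) with mt-Atp6 (7927 to 8607), mt-Nd4l (9877 to 10173) with mt-Nd4 (10167 to 11544), and mt-Nd6, on the minus strand, with the end of mt-Nd5 (13552 to 13565). The values of overlapping genes are less certain, since UMIs from a shared stretch can be assigned to neither or to the wrong gene.

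Genes of neighbouring mitochondrial functions were counted from lists outside the rule. Of the mitochondrial ribosome, which translates the 13 mitochondrial transcripts, 53 of 78 genes tested were higher in CD45.2+ DZ cells and none lower, and 39 of 77 were higher and 4 lower in CD45.1+ cells. Mrpl18 and Mrpl51 of its large subunit rose by 1.49 and 1.39 in CD45.2+ cells. Of the TCA cycle, 9 of 17 rose and none fell in CD45.2+ cells, and 8 of 17 in CD45.1+ cells, among them Idh3a at 0.81 and Mdh2 at 0.67 in CD45.2+ cells. Electron carriers and exchangers had 6 of 11 higher in CD45.2+ cells, including cytochrome c (Cycs, 1.09), and glycolysis 6 of 15, including Gapdh (0.88), with no call lower. In CD45.1+ cells 6 of 10 carriers rose and none fell, and 6 of 13 glycolytic genes rose and 2 fell.

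The factors that transcribe or maintain mitochondrial RNA had 4 of 19 higher in CD45.2+ and 2 of 14 in CD45.1+ cells, beside 20.8% and 24.1% of all genes. Tfb1m, which methylates the mitochondrial small ribosomal RNA, rose by 1.45, and Tfam, which packages and activates mitochondrial DNA, by 0.45 in CD45.2+ cells. Among regulators of nuclear respiratory genes, Gabpa, Nrf1 and Yy1 rose in CD45.2+ cells (0.72, 0.49 and 0.52) and the nuclear receptor Esrra fell (-0.76), with 4 higher and 1 lower of 10. In CD45.1+ cells 1 of 9 rose and 2 fell, Esrra (-0.65) and Myc (-0.62). Assembly factors of complexes III, IV and V outside the rule were mixed, with 5 higher and 1 lower of 20 in CD45.2+ and 3 higher and 5 lower of 17 in CD45.1+ cells. Of the enzymes that remove peroxide and superoxide, 1 of 8 rose in each library, and it was Gpx4 (0.71) in CD45.2+ cells.

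**Figure D3:**
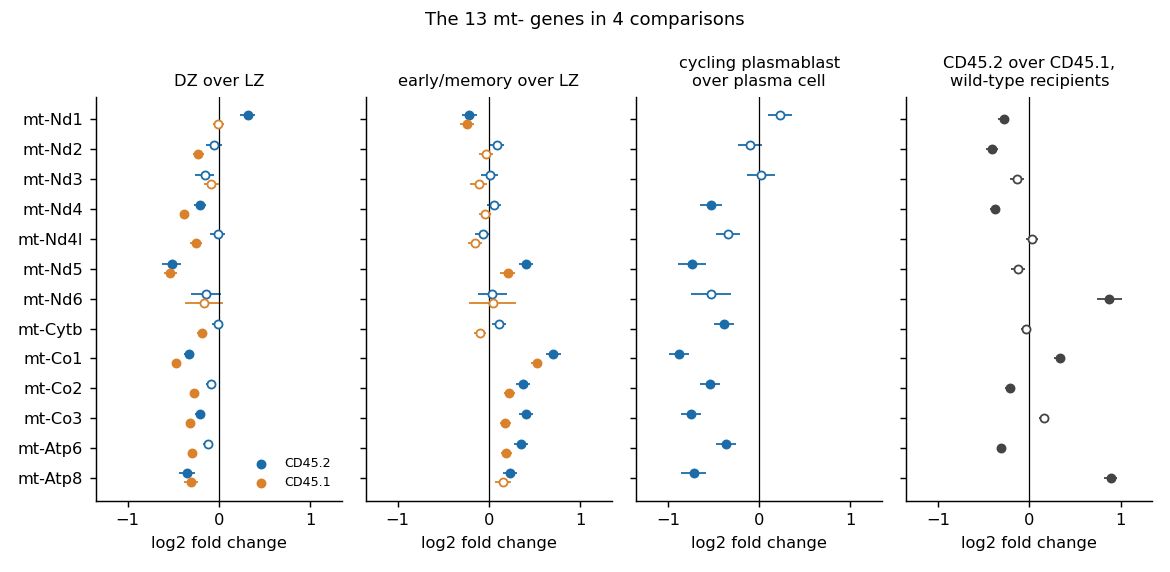
Log2 fold changes ± SE (edgeR) of the 13 mitochondrial members for DZ over LZ, early and memory-like over LZ, and cycling plasmablast over PC in CD45.2+ cells of the 3 WT-group mice, and, in grey, CD45.2+ over CD45.1+ cells of the same recipients. mt-Co1 is below 0 in DZ cells and cycling plasmablasts and above 0 in early and memory-like cells, and mt-Atp8 and mt-Nd6 stand apart between the sorts.

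Cycling plasmablasts were compared with PCs in CD45.2+ cells of the WT-group mice, as the other pair of dividing and non-dividing states. Of 90 nuclear members, 55 were higher and 2 lower in cycling plasmablasts (median 0.52, all genes -0.05), where 13.6% of all genes tested were higher and 10.5% lower (24.1% called). Without WT mouse 2, 25 nuclear members were called. Complex III had 7 of 8 higher, complex V 15 of 17, complex I 22 of 38, complex IV 8 of 12 and complex II 1 of 4. Cox7a2 was at 543, 590 and 608 CPM in cycling plasmablasts and 233, 238 and 276 CPM in PCs (1.01 ± 0.13). Ndufc1, a membrane-arm subunit of complex I, rose by 1.02 ± 0.14, and Atp5g1, which encodes the c subunit of the ATP synthase ring, by 0.84 ± 0.13. Ndufaf2 and Ndufaf7 were called as well (1.32 and 1.33), but Ndufaf2 was listed at 0 in 1 of the 3 mice, whose cycling plasmablasts numbered 12.

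The mitochondrial members fell in the same comparison, 8 of 13 lower and none higher (median -0.53). mt-Co1 was at 2082, 2062 and 2189 CPM in cycling plasmablasts and 3744, 3661 and 2824 CPM in PCs (-0.88 ± 0.11, adjusted p = 6.4e-09). mt-Co3 (-0.75), mt-Nd5 (-0.74) and mt-Atp8 (-0.72) followed, and mt-Nd1 was again at the other end (0.23 ± 0.13, adjusted p = 0.22). The 2 nuclear members called lower were Cox7a2l (-0.68 ± 0.16, 129 against 188 CPM) and Cox6a2 (-1.33 ± 0.44). Cox6a2 was at 22.4, 0 and 9.30 CPM (4, 0 and 9 UMIs) in cycling plasmablasts of mice 1, 2 and 3. In their PCs it was at 12.2, 19.5 and 16.7 CPM, so the states overlapped in CPM and mouse 1 went the other way. Of the related lists, 33 of 78 mitochondrial ribosome genes, 6 of 17 TCA cycle genes, 6 of 14 glycolytic genes and 6 of 11 electron carriers rose, and 1 ribosome gene fell. Scaling by library size alone raised the median of all genes from -0.05 to 0.17 and gave 68 higher and 2 lower nuclear members, and 1 higher and 6 lower mitochondrial members.

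PCs were compared with LZ cells, where the result depended on the scale. TMM scaling, which takes most genes as unchanged, placed PCs 0.80 (CD45.2+) and 0.99 (CD45.1+) log2 units lower in effective library size than LZ cells, and on that scale 33 of 92 nuclear members were higher and 9 lower in CD45.2+ PCs, and 58 of 85 higher and 4 lower in CD45.1+ PCs. Without WT mouse 2, 26 nuclear members and 1 mitochondrial member were called in CD45.2+ PCs. On library size alone, which counts immunoglobulin in the total, 3 were higher and 73 lower in CD45.2+ and 9 higher and 54 lower in CD45.1+ PCs. On the TMM scale the medians were 0.12 and 0.53, against -0.01 and -0.09 for all genes, and 22.9% and 30.5% of all genes were higher and 20.5% and 33.4% lower (43.3% and 63.9% called). Mitochondrial members split, with 6 higher and none lower in CD45.2+ and 2 higher and 4 lower in CD45.1+ PCs, and none higher and 12 lower in either library on library size alone.

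Some members differed on either scale. Ndufa1, a small X-linked subunit of complex I, was at 403, 427 and 567 CPM in PCs and 179, 139 and 233 CPM in LZ cells of the CD45.2+ mice (2.19 ± 0.11), and at 578 ± 33 against 174 ± 28 CPM in CD45.1+ cells (2.72 ± 0.09). Uqcrq of complex III was at 400, 372 and 475 CPM against 272, 267 and 334 CPM (1.31 ± 0.11). Sdhaf2, which attaches the flavin to Sdha, was lower: 27.1, 27.8 and 21.4 CPM in PCs against 116, 92.6 and 98.7 CPM in LZ cells of the CD45.2+ mice (-1.16 ± 0.16), and 13.3 ± 2.4 against 110 ± 23 CPM in CD45.1+ cells (-1.98 ± 0.19). Neither of these genes overlapped between the states in CD45.2+ cells.

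On the same scale, 1 glycolytic gene was higher and 10 lower of 15 in CD45.2+ PCs, and 1 higher and 6 lower of 13 in CD45.1+ PCs, where 20.5% and 33.4% of all genes were lower. Eno1 and Ldha fell by 1.55 and 1.31 on the log2 scale in CD45.2+ PCs, and Hk2, which phosphorylates glucose, was higher (1.09). TCA cycle genes were mixed (1 higher and 5 lower of 17, and 4 higher and 4 lower of 16), with the mitochondrial isocitrate dehydrogenase Idh2 up (1.08 and 1.60) and fumarase Fh1 down (-1.34 and -1.66). Across both libraries 31 nuclear members were called higher in PCs in both, 2 lower in both, and 1 in opposite directions: Cox6c, at -0.28 ± 0.09 in CD45.2+ and 0.22 ± 0.08 in CD45.1+ PCs on the TMM scale. On library size alone Cox6c was lower in CD45.1+ PCs too (-0.77). Calls made in both libraries were counted for the members only.

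Early and memory-like cells (EarlyGC1, EarlyGC2 and Activated/Memory clusters) were compared with LZ cells. Of the nuclear members, 4 were higher and 26 lower of 91 in CD45.2+ cells (median -0.16, all genes 0.01) and 14 higher and 22 lower of 86 in CD45.1+ cells (median -0.01, all genes -0.03), where 14.1% and 21.9% of all genes were higher and 12.5% and 20.4% lower (26.6% and 42.2% called). The 36 of 86 called in CD45.1+ cells lie near the share of all genes and are not a result about the members. On library size alone, which moved the median of all genes by -0.22 and -0.31, 1 was higher and 53 lower in CD45.2+ and 3 higher and 53 lower in CD45.1+ cells. Across both libraries 20 of 86 were lower in both and 4 higher in both, again without a count for all genes.

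The catalytic Atp5b was at 234 ± 24 against 381 ± 47 CPM in CD45.2+ cells (-0.46 ± 0.08) and at 262 ± 21 against 451 ± 50 CPM in CD45.1+ cells (-0.47 ± 0.09). Uqcr11 (-0.56 and -0.60), Ndufa12 (-0.65 and -0.53) and the c subunit genes Atp5g1 (-0.47 and -0.40) and Atp5g3 (-0.43 and -0.68) were also lower in both libraries. The 4 that were higher in both were named after their values were seen: Cox7a2l (0.57 and 0.48), Uqcrh (0.33 and 0.38), Cox8a (0.25 and 0.55) and Cox4i1 (0.23 and 0.32), of which Cox4i1 changed sign in CD45.2+ cells on library size alone (-0.01). On that scale only 1 nuclear member was called higher in CD45.2+ and 3 in CD45.1+ cells, so most of these calls rest on TMM scaling. In CD45.1+ cells the mice of the states overlapped in CPM for all 4. On the TMM scale Cox7a2l and Uqcrh were on the opposite side of most called members in both this comparison and that of DZ with LZ, which share the LZ cells.

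The mitochondrial members were higher in early and memory-like cells in 6 of 13 (1 lower) in CD45.2+ and 5 of 13 (1 lower) in CD45.1+ cells on the TMM scale, and on library size alone in 2 (3 lower) and 1 (7 lower). On the TMM scale 14.1% and 21.9% of all genes were higher and 12.5% and 20.4% lower (26.6% and 42.2% called). The mitochondrial count in CD45.1+ cells lies near the share of all genes and is not a result about the members. mt-Co1 was at 6927, 7073 and 6459 CPM against 5177, 4943 and 4632 CPM in LZ cells of the CD45.2+ mice (0.71 ± 0.08) and 5190 ± 520 against 4450 ± 310 CPM in CD45.1+ cells (0.52 ± 0.06). mt-Nd1 was lower, at 487 ± 23 against 674 ± 57 CPM in CD45.2+ cells (-0.22 ± 0.08, adjusted p = 0.037) and -0.24 ± 0.08 in CD45.1+ cells. Glycolysis was lower here too, 10 of 15 in CD45.2+ and 7 of 12 in CD45.1+ cells, with Pfkp at -1.74 and -1.69 and Tpi1 at -1.09 and -1.10.

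Subunits with several genes shifted between them across states. The c ring of complex V is built from 1 mature protein encoded by Atp5g1, Atp5g2 and Atp5g3, which differ in their import sequences. Each UMI marks the 3′ end of 1 molecule, so shares of a family's UMIs were not corrected for length. Atp5g1 gave 19.6 ± 0.24% of the family's UMIs in early and memory-like, 24.9 ± 1.7% in LZ, 38.4 ± 3.0% in cycling plasmablast and 34.0 ± 1.7% in PC-like CD45.2+ cells. In CD45.1+ cells these shares were 18.6 ± 2.1%, 25.9 ± 1.0%, 38.6 ± 2.6% and 41.8 ± 2.5%, in the same order except that PCs stood above cycling plasmablasts. Atp5g2 went from 62.8% in early and memory-like to 53.1% in LZ and 44.6% in PC-like CD45.2+ cells, and DZ cells, at 24% Atp5g1 and 50.1% Atp5g2, were within 3 percentage points of LZ cells for both genes.

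Cox7a2l and Cox7a2 share a conserved domain, and Cox7a2 is the usual subunit of complex IV. What the Cox7a2l protein does in these cells was not tested. Cox7a2l gave 67.4 ± 2.6% of the UMIs of the Cox7a genes in early and memory-like, 54.4 ± 4.3% in LZ, 37.2 ± 0.98% in DZ and 18.2 ± 2.7% in cycling plasmablast CD45.2+ cells, and 42.9 ± 6.2% in PCs. The CD45.1+ shares were 69.1 ± 2.2%, 59.5 ± 4.3%, 42.6 ± 2.5%, 15.1 ± 3.7% and 29.1 ± 6.3%. The first 4 states kept the same order in both libraries with gaps larger than the SD of either neighbour, and PCs stood between LZ and cycling plasmablasts. Cox6b1 gave at least 99.4% of the Cox6b UMIs in every state.

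**Figure D4:**
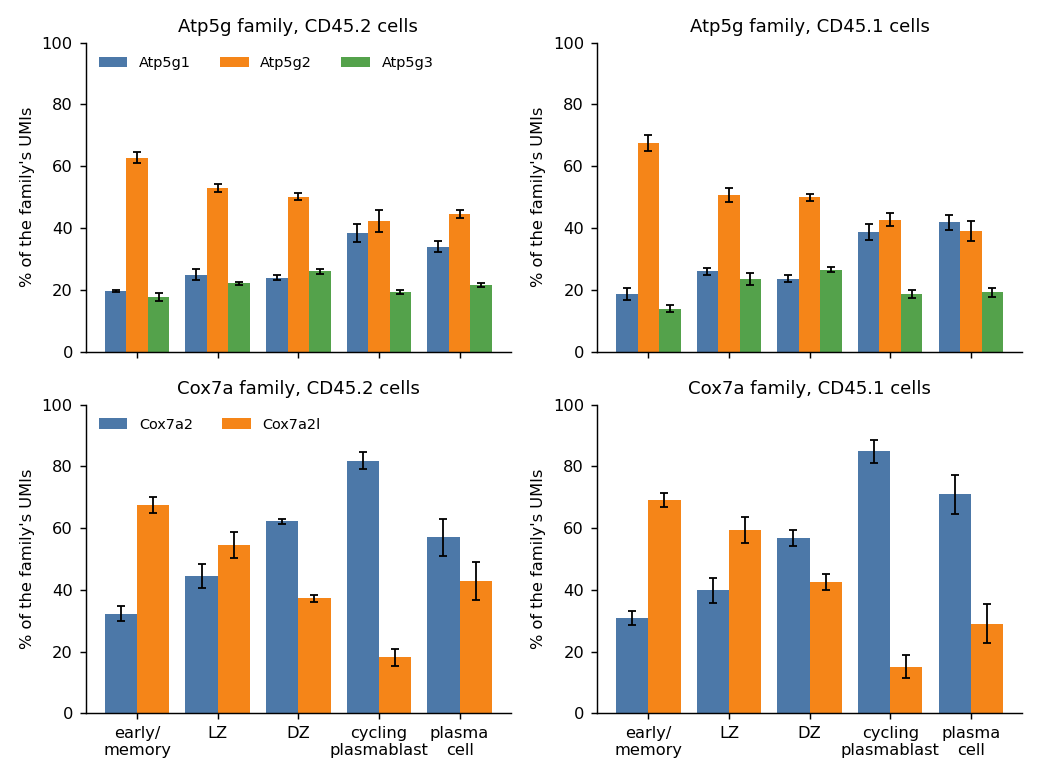
Percent of each family's UMIs from Atp5g1, Atp5g2 and Atp5g3 and from Cox7a2 and Cox7a2l in 5 cell states of both libraries, with bars at the mean over mice and error bars of 1 SD. The Atp5g1 share is higher in cycling plasmablasts and PCs than in the other states, and the Cox7a2l share falls from early and memory-like cells (67.4% in CD45.2+) to cycling plasmablasts (18.2%).

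Cox6a2, known as the heart and skeletal muscle form of Cox6a, was read mostly in plasma cells. In the CD45.2+ library 62 of 1464 plasma cells held 201 of its UMIs and 28 of 5024 non-plasma cells held 45, and in the CD45.1+ library 9 of 696 plasma cells held 22 and 2 of 2508 non-plasma cells held 2. The PC1-like cluster held 143 Cox6a2 UMIs in 41 of 229 CD45.2+ cells (17.9%, 95% exact interval 13.2 to 23.5%, 88.1 CPM) and 17 UMIs in 5 of 21 CD45.1+ cells (23.8%, 8.22 to 47.2%, 124 CPM). LZ cells had none, which allows up to 1.01 CPM in CD45.2+ and 0.825 CPM in CD45.1+ cells, and T cells, which should lack it, had 2 UMIs in 1 of 65 CD45.2+ cells (1.54%). The PC1-like CD45.2+ cells had a median of 6549 UMIs, the LZ cells 4991 and the T cells 3279. The 3 PC2-like clusters of the CD45.2+ library were at 2.56 to 17.3 CPM. Intervals and limits cover counting error only. Among non-plasma CD45.2+ cells, DOCK8-deficient mouse 3 held 12 Cox6a2 UMIs (19.2 CPM), the other DOCK8-deficient mice none and WT mice 0.793 to 0.961 CPM. CD45.1+ PCs held none in DOCK8-deficient-group mice 1 and 2 and WT-group mouse 3.

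The study compared DOCK8-deficient with WT B cells, and this comparison was made over all CD45.2+ cells other than PCs, plasmablasts and T cells, in 38, 56 and 88 cells of the 3 mice labelled DOCK8-deficient and 1225 to 1925 cells of the WT mice. None of the 92 nuclear members passed by edgeR (15 at an unadjusted p under 0.05, and 2 called by DESeq2), where 0.283% of all genes were called (0.0683% higher and 0.215% lower) and 7.94% had an unadjusted p under 0.05. When the cells labelled DOCK8-deficient were restricted to those with a Y-linked UMI and WT cells to those without, an alternative chosen after seeing the data, 6 nuclear members were called lower: Atp5g2 (-0.55), Cox4i1 (-0.54), Atp5l (-0.53), Cox5b (-0.49), Atp5h (-0.45) and Atp5e (-0.41). That setting also called mt-Cytb (-0.47), mt-Co1 (-0.38), mt-Atp6 (-0.37) and mt-Co2 (-0.33) lower. The share of all genes called in that setting is not given here. In the same cells, the difference between this effect and that of the CD45.1+ cells passed for no member by edgeR. It was -0.52 for Atp5g2 and -0.42 for mt-Cytb (adjusted p = 0.063 for each). Over all labelled cells the nuclear median log2 fold change was -0.09, with 26 above 0, and the 3 mice of each group did not overlap for 17 of 92, against 19.2% of all genes. The largest by p were Cox4i1 (632 ± 23 against 750 ± 33 CPM, -0.37 ± 0.09, adjusted p = 0.086), Atp5g2 (-0.32 ± 0.09, adjusted p = 0.18), Cox7a2l (-0.33 ± 0.10, adjusted p = 0.24) and Uqcrh (-0.30 ± 0.09, adjusted p = 0.24). Cox4i1, Cox7a2l, Uqcrh, Atp5g2, Cox6c (-0.10 ± 0.09) and mt-Co1 are also on a gene list the study chose on these libraries, so they are not independent evidence. In simulated counts of this comparison, 2% of genes changed by 0.5 and 32% of those changed by 1 on the log2 scale were recovered. The changed genes were drawn at random from all genes tested, whatever their level. The power for the members themselves was not tested.

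Of the mitochondrial members, 2 of 13 passed and both were lower in cells labelled DOCK8-deficient. mt-Co1 was at 4543 ± 110 CPM (lowest 4427, highest 4647) against 5411 ± 279 CPM in WT cells (5089 to 5581), with no overlap between the mice (-0.37 ± 0.07, adjusted p = 0.0073). mt-Cytb, the core of complex III, was at 2133 ± 66 against 2476 ± 130 CPM (-0.33 ± 0.07, adjusted p = 0.041). Neither call held without TMM scaling, which moved the median of all genes from -0.02 to 0.10 (mt-Co1 -0.25, adjusted p = 0.052), when hashtags were assigned by 3-fold excess (mt-Co1 -0.24, adjusted p = 0.34) or normalized over each cell (mt-Co1 -0.23, adjusted p = 0.094), in LZ and DZ clusters alone (mt-Co1 -0.21, adjusted p = 0.94), or when DOCK8-deficient mouse 1, 2 or 3 or WT mouse 1 was left out. The mix of states varied between mice, and the labels overlapped. Early and memory-like cells were 18 of 56, 17 of 38 and 45 of 88 cells under the DOCK8-deficient label and 1018 of 1627, 900 of 1925 and 617 of 1225 under the WT label. Among early and memory-like cells alone, mt-Co1 was at 5841, 5771 and 5842 CPM under the DOCK8-deficient label and at 6927, 7073 and 6459 CPM under the WT label. In DZ cells it was at 3237, 3833 and 3267 against 3631, 3648 and 3929 CPM, and the groups overlapped.

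The CD45.1+ cells of the same recipients, all WT, gave the background of recipient group and hashtag. None of the nuclear or mitochondrial members passed there by edgeR (2 and 0 at an unadjusted p under 0.05; against 6.92% of all genes, of which 0.0115% were called), and mt-Co1 was at 4106 ± 151 against 4281 ± 205 CPM (-0.10). The difference between the CD45.2+ and CD45.1+ effects, which is the test of a B cell-intrinsic difference, passed for no member by edgeR (12 nuclear and 5 mitochondrial at an unadjusted p under 0.05; against 5.83% of all genes, of which 0.0318% were called, 0.0106% higher and 0.0212% lower). It was -0.27 for mt-Co1 (adjusted p = 0.51) and -0.28 for mt-Cytb (adjusted p = 0.31), so the mt-Co1 and mt-Cytb differences are not shown to be particular to the CD45.2+ cells. No gene of the related lists passed in the CD45.2+ cells by edgeR either, with 5 of 78 mitochondrial ribosome genes, none of 17 TCA cycle and none of 15 glycolysis genes at an unadjusted p under 0.05.

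**Figure D5:**
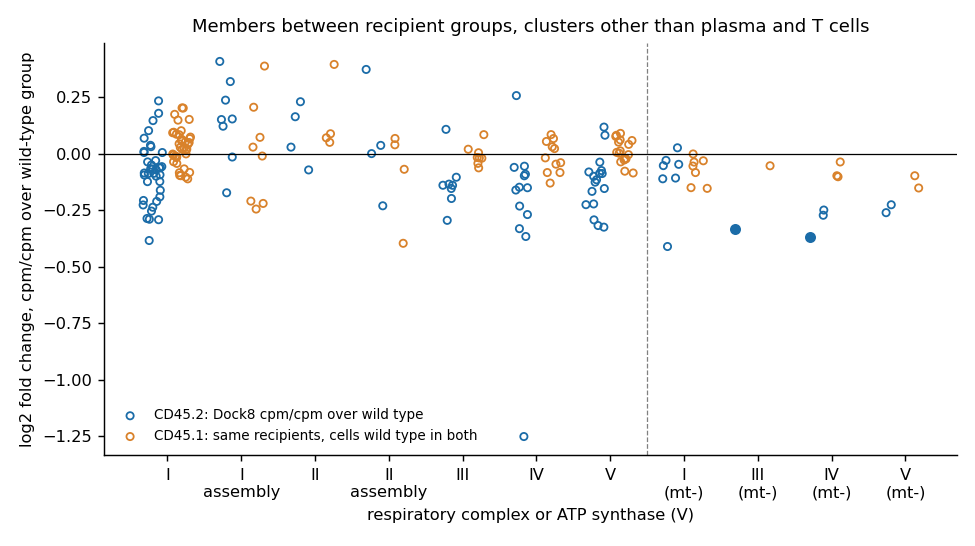
Log2 fold change of DOCK8-deficient over WT recipient group for each member by complex, in CD45.2+ cells, where the groups carry the labelled genotypes, and in CD45.1+ cells, which are WT in both groups. Filled points passed an adjusted p of 0.05, which holds for mt-Co1 and mt-Cytb in CD45.2+ cells and for no member in CD45.1+ cells.

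CD45.2+ and CD45.1+ cells of the same 3 WT recipients differed in sort, library and the BCL2 transgene, whose product acts at the mitochondrial outer membrane. Of 92 nuclear members 3 were higher and 6 lower in CD45.2+ cells, where 2.32% of all genes were higher and 2.06% lower (4.38% called). Ndufa3 (0.29 ± 0.08) and Cox7c (0.28) were among the higher, and Sdhaf1 (-0.45 ± 0.12), Atp5f1 (-0.33) and Atp5d (-0.33) among the lower. None of these 9 calls was made by DESeq2, and without WT mouse 1 or WT mouse 2 there was none by edgeR either, against 31 without WT mouse 3.

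Of the 13 mitochondrial members, 3 were higher and 5 lower in CD45.2+ cells. mt-Atp8 was at 549, 579 and 571 CPM in CD45.2+ and 311, 284 and 317 CPM in CD45.1+ cells (0.89 ± 0.07, adjusted p = 3.1e-06), mt-Nd6 at 41.9 ± 1.9 against 22.2 ± 4.5 CPM (0.88 ± 0.14) and mt-Co1 at 5411 ± 279 against 4281 ± 205 CPM (0.33 ± 0.06). The neighbour mt-Atp6, which overlaps mt-Atp8, was lower (-0.31), as were mt-Nd2 (-0.41), mt-Nd4 (-0.38), mt-Nd1 (-0.28) and mt-Co2 (-0.22). The mt-Atp8 difference was seen within states as well, with 424, 433 and 545 CPM in CD45.2+ against 245 to 324 CPM in CD45.1+ DZ cells and 412 to 420 against 173 to 217 CPM in PCs. The mix of states moved with the library: over both recipient groups there were 530 CD45.2+ and 1007 CD45.1+ cells in the main LZ-like cluster and 1030 and 153 in the EarlyGC1-like cluster. In LZ and DZ clusters alone the mt-Co1 difference was 0.03 (adjusted p = 0.61) and that of mt-Atp8 0.70, and in EarlyGC1-like clusters alone they were 0.36 and 1.11. The part of the library, the sort and the transgene in these values was not tested.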

How the data were processed

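Droplet 3′-end single-cell libraries of 2 sorts, CD45.2+ and CD45.1+ HEL+ CD95+ MD4 B cells of 6 pooled, hashtagged spleens, were analysed with their hashtag libraries. The deposited files hold raw counts: UMI counts per gene and cell and antibody counts per hashtag and cell, which the authors made with Cell Ranger 5.0.1 on mm10, per the submitters' processing notes, which also name Seurat 4.0. Mice and groups came from the deposited hashtag table. Cells were kept when Seurat 5.3.0 (HTODemux, quantile 0.99) called 1 hashtag and the cell had 100 to 5500 genes and under 10% mitochondrial counts. This left 9692 cells, fewer than the study states. The CD45.2+ gene table held 24241 barcodes, of which 14617 were in its hashtag table and 6569 were singlets, and for CD45.1+ these numbers were 5232, 4857 and 3294. The mitochondrial limit removed 80 and 90 singlets. Doublets within a hashtag were not removed: scrublet (scanpy 1.11.5) called 4 and 13 cells, so leaving out the top 6% by score was an alternative.

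Both libraries were merged with sctransform 0.4.2 (3000 variable genes without the members, 30 principal components, Louvain resolution 0.9). Clusters were named from the study's marker lists, chosen on these libraries. Counts were summed per mouse and state (at least 10 cells) and tested with edgeR 4.0.16 (TMM, filterByExpr, quasi-likelihood, two-sided) with Benjamini-Hochberg adjustment over all genes tested. Fold changes are log2 on the TMM scale with their SE, and CPM values are scaled to all UMIs of the sample. States and sorts were compared with the mouse as a block, since the cells come from the same animal, and recipient groups without one. DESeq2 1.42.0 was an alternative. The test was checked on simulated counts. Pools of cells per mouse are the replicates, with 3 mice per recipient group, and CPM of low genes rest on few UMIs.

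The members and all gene lists were chosen with earlier results of these data known. Named genes are the 13 mitochondrial members, core subunits, isoform families, assembly factors, the study's listed members, the 5 most abundant and, per comparison, the 5 largest called fold changes in each direction without overlap. The values of 1 core subunit are not reported here. Sdhd, Cox6a1 and Atp5k promoters, and genes of related lists given as examples, were chosen after their values were seen. RefSeq promoters were not matched for 17 nuclear members.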

Additional observations from a re-analysis of the deposited data

Results flagged for a closer look

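Outlying mice were looked for among the CD45.1+ samples, where up to 6 mice form a group, and 9 of 217 groups had 1 mouse far from the others, close to the 1 in 20 that chance gives. In Activated/Memory-like cells the nuclear share of WT-group mouse 3 was 1.97% of UMIs, with the others between 1.85 and 1.88%. In DZ cells Ndufaf6 was at 17.8 CPM in WT-group mouse 1 (others 11.3 to 13.2 CPM) and Sdhb at 221 CPM in WT-group mouse 3 (others 252 to 264 CPM). In LZ cells of WT-group mouse 3, Atp5b was at 543 CPM (others 404 to 456 CPM) and mt-Cytb at 3293 CPM (others 2589 to 2836 CPM), and Ndufaf8 was at 80.9 CPM in WT-group mouse 2 (others 101 to 110 CPM). Sdhaf4 was at 18.6 CPM in PCs of WT-group mouse 2 (others 23.5 to 25.7 CPM). In early and memory-like cells Cox8a was at 783 CPM in DOCK8-deficient-group mouse 1 (others 881 to 917 CPM) and Sdhaf1 at 8.37 CPM in DOCK8-deficient-group mouse 2 (others 20.04 to 25.1 CPM).

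Cox6a1 moved in opposite directions from LZ cells to PCs in the libraries on CPM with immunoglobulin in the total, and not on the TMM scale, where it was higher in PCs in both (log2 fold change 0.60 in CD45.2+ and 1.49 in CD45.1+ cells). In CPM it was 28.4 CPM lower in PCs in CD45.2+ cells, a difference of -28.4 CPM with all 3 mice between -34.6 and -16.4 CPM, and 76.1 CPM higher in CD45.1+ cells, with all 6 mice between 27.2 and 132 CPM. The difference between the libraries was not tested. In all, 137 pairs of a member and a comparison were examined in this way.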

How the results depend on the processing

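The rise of nuclear members in DZ cells kept its direction under each alternative. Counts of called members that moved by over 1.5 times are given here by setting. With DESeq2, genotype gave 2 nuclear and 5 mitochondrial calls, sort 0 nuclear, DZ against LZ 3 mitochondrial in CD45.2+ cells, PC against LZ 22 nuclear and 1 mitochondrial in CD45.2+ and 2 mitochondrial in CD45.1+ cells, early and memory-like against LZ 14 nuclear in CD45.2+ and 3 mitochondrial in CD45.1+ cells, and cycling plasmablasts against PC 34 nuclear. On library size without TMM, genotype gave 0 mitochondrial and sort 5 nuclear calls, PC against LZ 76 nuclear and 12 mitochondrial in CD45.2+ and 12 mitochondrial in CD45.1+ cells, and early and memory-like against LZ 54 nuclear in CD45.2+ and 56 in CD45.1+ cells. Without a filter on low counts, genotype gave 4 nuclear and 4 mitochondrial calls, the difference between sorts 2 mitochondrial and sort 14 nuclear. With hashtags normalized over each cell, genotype gave 1 nuclear and 0 mitochondrial, sort 1 nuclear, and early and memory-like against LZ in CD45.1+ cells 17 nuclear and 1 mitochondrial. That setting gave no cycling plasmablast cluster, so no value for it. With the 3-fold hashtag rule, genotype gave 1 nuclear and 0 mitochondrial, sort 3 nuclear and 5 mitochondrial, and PC against LZ in CD45.2+ cells 3 mitochondrial. Leaving out high doublet scores gave 1 mitochondrial call for genotype and 3 nuclear for sort, and mitochondrial counts under 5% with over 500 genes 1 mitochondrial call for genotype. In LZ and DZ clusters alone, genotype gave 0 mitochondrial and sort 30 nuclear calls, in EarlyGC1-like clusters alone genotype 1 mitochondrial and sort 2 nuclear and 4 mitochondrial, and with plasma cells sort 45 nuclear. Restricting the cells labelled DOCK8-deficient to those with a Y-linked UMI (32, 21 and 53 cells) and WT cells to those without, an alternative chosen after seeing the data, gave 6 nuclear calls, all lower, and 4 mitochondrial calls. The difference between sorts gave no call of a member in these cells. Cells with both Xist and a Y-linked UMI stayed in under the DOCK8-deficient label, and UMIs per cell were not matched between the groups. The cause of these differences was not tested.

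States and sorts were blocked by mouse. Without the replicate block, early and memory-like against LZ in CD45.2+ cells gave 17 nuclear calls, and no other count moved by over 1.5 times. No paired analysis was possible between recipient groups because they hold different mice.

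Leaving out 1 mouse at a time gave these ranges of called nuclear and mitochondrial members. DZ against LZ gave 45 to 73 and 4 to 8 in CD45.2+ cells (45 without WT mouse 2), and 63 to 67 and 10 in CD45.1+ cells. PC against LZ gave 26 to 49 and 1 to 7 in CD45.2+ cells (26 and 1 without WT mouse 2), and 59 to 62 and 4 to 8 in CD45.1+ cells. Early and memory-like against LZ gave 20 to 31 and 5 to 7 in CD45.2+, and 31 to 35 and 3 to 6 in CD45.1+ cells. Cycling plasmablasts against PC gave 25 to 54 and 6 to 8 (25 without WT mouse 2). Genotype gave 0 to 1 and 0 to 2, recipient group in CD45.1+ cells 0 and 0, the difference between sorts 0 and 0 to 3 (3 without WT mouse 3), and sort 0 to 31 and 1 to 9.

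Directions reversed mainly for PC against LZ without TMM, where 24 named calls were followed in CD45.2+ and 28 in CD45.1+ cells. In EarlyGC1-like clusters alone Ndufa3 between sorts was -0.14, and with hashtags normalized over each cell mt-Co1 in CD45.2+ PCs was -0.00897. Without TMM, the PC against LZ values turned negative in CD45.2+ cells for Cox6a1 (-0.20), Ndufb2 (-0.24), Sdhaf1 (-0.18), Cox7a2 (-0.29), Atp5g1 (-0.13), Uqcrfs1 (-0.27), mt-Nd2 (-0.56), mt-Co1 (-0.54), mt-Co2 (-0.59), mt-Nd4l (-0.54), mt-Nd6 (-0.060) and mt-Cytb (-0.45), and in CD45.1+ cells for Ndufs1 (-0.50), Atp5g3 (-0.58), Sdhb (-0.66), Cox6b1 (-0.67), Cox5a (-0.41), Uqcrfs1 (-0.15), Cox7c (-0.26), Cox6c (-0.77), Atp5g2 (-0.64), Ndufv1 (-0.58), Cox8a (-0.57), mt-Co1 (-0.77) and mt-Nd6 (-0.21). Early and memory-like against LZ turned for Cox4i1 (-0.0072) in CD45.2+ and for mt-Co2 (-0.085), mt-Atp6 (-0.12), mt-Co3 (-0.13) and mt-Nd5 (-0.10) in CD45.1+ cells.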

Other observations

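Plasma cells of the WT-group CD45.2+ mice fell into PC1-like and PC2-like clusters. Some members differed between them in every mouse in CPM with immunoglobulin in the total. Immunoglobulin took a larger part of the UMIs in PC2-like than in PC1-like cells of each mouse. Leaving it out raises the PC2-like values more, and values on that scale are not given here. These genes were picked after their values were seen, and the difference was not tested. mt-Co1 was at 5455, 5359 and 4186 CPM in PC1-like cells of mice 1, 2 and 3 and at 3425, 3341 and 2662 CPM in PC2-like cells. Uqcrq of complex III was at 578, 523 and 989 CPM against 367, 344 and 414 CPM, and Cox7a2l at 344, 332 and 209 CPM against 189, 169 and 149 CPM. Ndufa1, which was higher in PCs than in LZ cells, was at 418, 388 and 583 CPM in PC1-like and 400, 435 and 565 CPM in PC2-like cells. It had no common direction over the mice with immunoglobulin in the total, which does not show that the clusters are alike without it. CD45.1+ cells held too few PC1-like cells per mouse for the same values.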
